A study of Mus musculus with 16 samples.

Results

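The proteasome genes described here are all genes whose symbol in the array's annotation starts with Psma, Psmb, Psmc, Psmd, Psme, Psmf or Psmg followed by a digit, without the immunoproteasome subunits Psmb8, Psmb9 and Psmb10. The rule gave 47 of the 19505 genes measured, each with 1 probe set. They comprise 13 subunits of the 20S core, 17 subunits of the 19S regulatory particle, 3 chaperones of 19S assembly, 4 activators and the Psme2-like gene Psme2b, the inhibitor Psmf1, 4 chaperones of core assembly, the testis subunit Psma8, the thymus subunit Psmb11, and 2 genes that share only the symbol, Psmc3ip, a recombination factor, and Psme3ip1, which binds Psme3. Psmb5, the core subunit with chymotrypsin-like activity, is not analysed here.

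Liver biopsies from 8 samples of a mouse model of nonalcoholic steatohepatitis (NASH) and 8 control samples, all on the C57BL/6 background, were measured on Affymetrix-type expression arrays from TRIzol-extracted total RNA. The labels do not give how the model was induced, the sex or the age, and nothing in them says that the samples are separate animals. The tests therefore weigh a group difference against variation among these samples only, part of which may be technical. In bulk liver, fewer cells of a type and less RNA per cell cannot be told apart.

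The proteasome degrades proteins that carry ubiquitin chains. Its core is a barrel of alpha and beta rings, with the proteolytic sites on beta subunits inside. The regulatory particle caps the barrel: its base unfolds substrates with a ring of ATPases, and its lid holds the deubiquitinase that takes the chain off. The Psme1 and Psme2 cap (PA28 alpha and beta), the Psme3 cap and the Psme4 cap (PA200) open the barrel in other ways and need no ubiquitin chain. Interferon gamma induces Psme1, Psme2 and the immunoproteasome subunits, which replace the constitutive catalytic subunits, and the transcription factor Nfe2l1 raises subunit genes together when proteasome activity falls short.

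Across the whole gene table, 26.6% of genes (5196 of 19505) had a limma adjusted p under 0.05, which is the meaning of "called" throughout. Of all genes, 13.2% were called higher in the NASH model and 13.4% lower. Of 20 hepatocyte markers, 8 were called lower and 1 higher, with a summed log2 value of 215.7 to 218.4 in NASH model samples and 218.1 to 220.4 in control samples. Among the defining ones, Alb, Apoa1, Ttr and Serpina1a had log2 values of 12.2 to 12.7 in NASH model samples and 12.1 to 12.7 in control samples, near the top of the array's range, and Hnf4a had 8.70 to 9.27 in NASH model samples and 9.45 to 9.96 in control samples. Markers of other cell types also differed. The summed log2 value of 14 markers of recruited macrophages was 103.9 to 112.2 in NASH model samples and 58.9 to 67.0 in control samples, with 13 of 14 called higher. That of 15 stellate cell and myofibroblast markers was 89.8 to 98.9 in NASH model samples and 70.1 to 77.6 in control samples, with 12 called higher. Kupffer cell markers, 12 genes, summed to 66.4 to 75.5 in NASH model samples and 74.0 to 86.1 in control samples, with 7 called lower and 1 higher. Cholangiocyte markers, 10 genes, summed to 39.0 to 58.6 in NASH model samples and 36.3 to 44.2 in control samples (6 called higher, 1 lower), endothelial markers, 13 genes, to 72.8 to 77.1 in NASH model samples and 71.9 to 79.2 in control samples (3 higher, 5 lower), and neutrophil markers, 10 genes, to 30.5 to 38.0 in NASH model samples and 25.5 to 36.9 in control samples (2 higher, 0 lower). The part of these cell types in the proteasome values was not tested.

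Of the 47 genes, 8 were called, 4 higher (8.51%, against 13.2% of all genes) and 4 lower (8.51%, against 13.4%). The called genes were Psmd8, Psme2b, Psme2 and Psme1, higher, and Psmd14, Psme4, Psmd6 and Psmd11, lower. The 47 genes had a median log2 fold change of -0.04, and all genes had -0.04. The median absolute log2 fold change was 0.13 for the proteasome genes and 0.19 for all genes. All genes include many dim ones. Of the 44 proteasome genes with a mean at or above the background level (log2 2.89), 18.2% were called in either direction. Of all genes with such a mean, 37.7% were called. Their median absolute log2 fold change was 0.25, against 0.13 for the 44. None of the 47 was called at 2-fold or more, against 5.22% of all genes. The groups did not overlap for 3 genes, Psmd8, Psmd6 and Psme2, against 9.54% of all genes. Non-overlap fixes the exact permutation p (two-sided) at 1.55e-04, the smallest that 12870 divisions of the 16 samples can give. That p therefore adds nothing to the non-overlap.

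**Figure D1:**
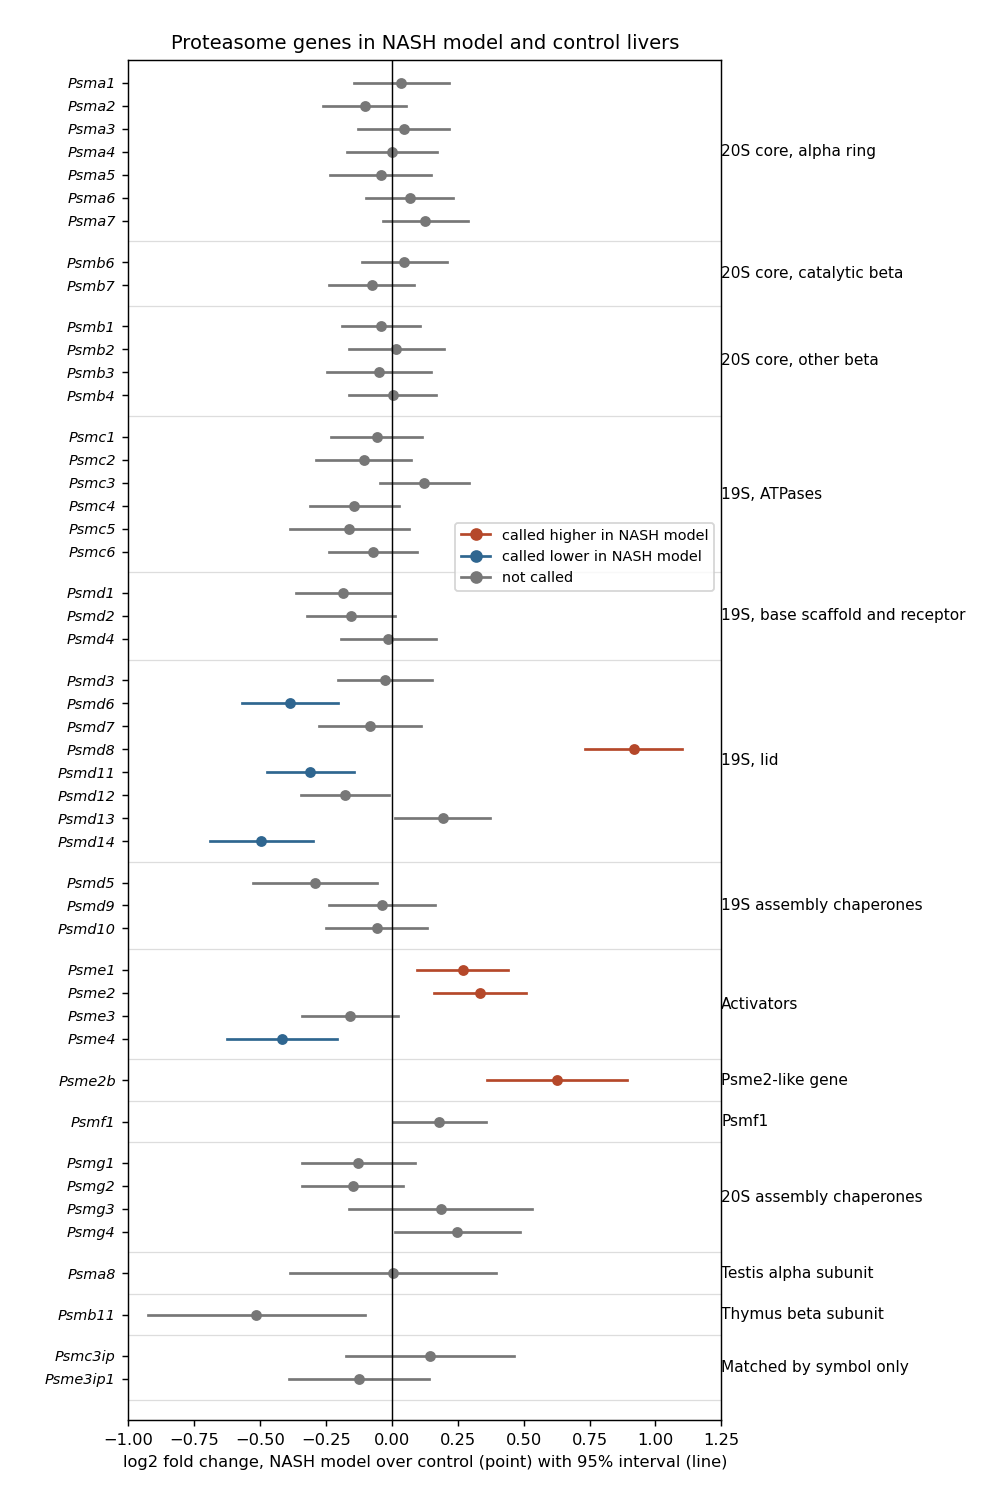
Log2 fold change, NASH model over control, of the 47 proteasome genes by role. Points are limma estimates, lines are 95% intervals, and colours show the calls at an adjusted p under 0.05. All 13 core subunits lie between -0.10 and 0.13, and Psmd8 stands apart at 0.92.

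The barrel itself showed no called change. None of the 13 core subunits was called in either direction. Log2 fold changes ran from -0.10 for Psma2 to 0.13 for Psma7, with a median of 0.00, and every 95% interval lay between -0.26 and 0.29. The median standard deviation within groups was 0.11 for these subunits and 0.27 for all genes.

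Among the catalytic subunits, Psmb6, with caspase-like activity, averaged 8.15 ± 0.08 in NASH model samples and 8.11 ± 0.12 in control samples (log2, SD, n = 8 each). Its log2 fold change was 0.05 (95% interval -0.11 to 0.21, limma adjusted p = 0.72). Psmb7, with trypsin-like activity, averaged 8.19 ± 0.11 in NASH model samples and 8.27 ± 0.10 in control samples. Its log2 fold change was -0.08 (95% interval -0.24 to 0.09, limma adjusted p = 0.53). Samples of both groups overlapped for both genes.

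The 6 ATPases of the regulatory particle, Psmc1 to Psmc6, were likewise not called, with log2 fold changes between -0.16 (Psmc5) and 0.12 (Psmc3). The base scaffolds Psmd1 and Psmd2 had values below control that missed the threshold. Psmd1 averaged 7.66 ± 0.12 in NASH model samples and 7.85 ± 0.15 in control samples (log2 fold change -0.19, 95% interval -0.37 to -0.01, limma adjusted p = 0.12). Psmd2 averaged 8.20 ± 0.13 in NASH model samples and 8.35 ± 0.10 in control samples (log2 fold change -0.16, adjusted p = 0.17). The ubiquitin receptor Psmd4 averaged 7.70 ± 0.14 in NASH model samples and 7.71 ± 0.13 in control samples (log2 fold change -0.01, 95% interval -0.19 to 0.17). Among chaperones that assemble the 19S particle, Psmd5 had a log2 fold change of -0.29 (adjusted p = 0.063), Psmd9 of -0.04 and Psmd10 of -0.06, with none called.

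The lid held the largest movement and moved both ways. Of its 8 genes, 1 rose and 3 fell, against 13.2% of all genes called higher and 13.4% called lower. Those shares of all genes include dim genes, while no lid gene had a value under the background level. In either direction, 50% of the 8 lid genes were called, against 37.7% of genes with a mean at or above that level. With 8 genes, whether these shares differ was not tested. Psmd8, whose yeast counterpart is the last subunit to join the lid, had log2 values of 8.63, 8.92 and 9.16 (lowest, median, highest) in NASH model samples and 7.66, 8.06 and 8.09 in control samples. All 8 NASH model samples lay above every control sample, and control 5 was the lowest of its group. The log2 fold change was 0.92 ± 0.09 (SE), 1.89-fold, with a limma adjusted p of 1.72e-07. Psmd14, the lid's deubiquitinase, had 5.64, 5.84 and 6.24 in NASH model samples and 6.20, 6.37 and 6.57 in control samples. Of the NASH model samples 7 lay below every control sample. Psmd14 fell by 0.50 ± 0.09 on the log2 scale (1.41-fold lower, adjusted p = 4.4e-04).

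Psmd6 had 6.68, 6.96 and 7.14 in NASH model samples and 7.17, 7.28 and 7.47 in control samples, and the groups did not overlap. Psmd6 fell by 0.39 ± 0.09 on the log2 scale (1.31-fold lower, adjusted p = 0.0021). Psmd11, which helps hold the lid to the core, had 7.91, 8.07 and 8.20 in NASH model samples and 8.17, 8.34 and 8.55 in control samples, with 7 of the 8 NASH model samples below every control sample. Psmd11 fell by 0.31 ± 0.08 on the log2 scale (1.24-fold lower, adjusted p = 0.0059). The remaining lid genes under the symbol rule were not called: Psmd3 at -0.03, Psmd7 at -0.08, Psmd12 at -0.18 (adjusted p = 0.12) and Psmd13 at 0.19 (adjusted p = 0.11). When arrays were scaled to their hybridization spike-in controls, the calls of Psmd6 (-0.30, adjusted p = 0.055) and Psmd11 (-0.23, adjusted p = 0.11) ended. Psmd11 was also not called with a score of 17 circadian clock genes in the fit (-0.23 ± 0.12, adjusted p = 0.22).

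**Figure D2:**
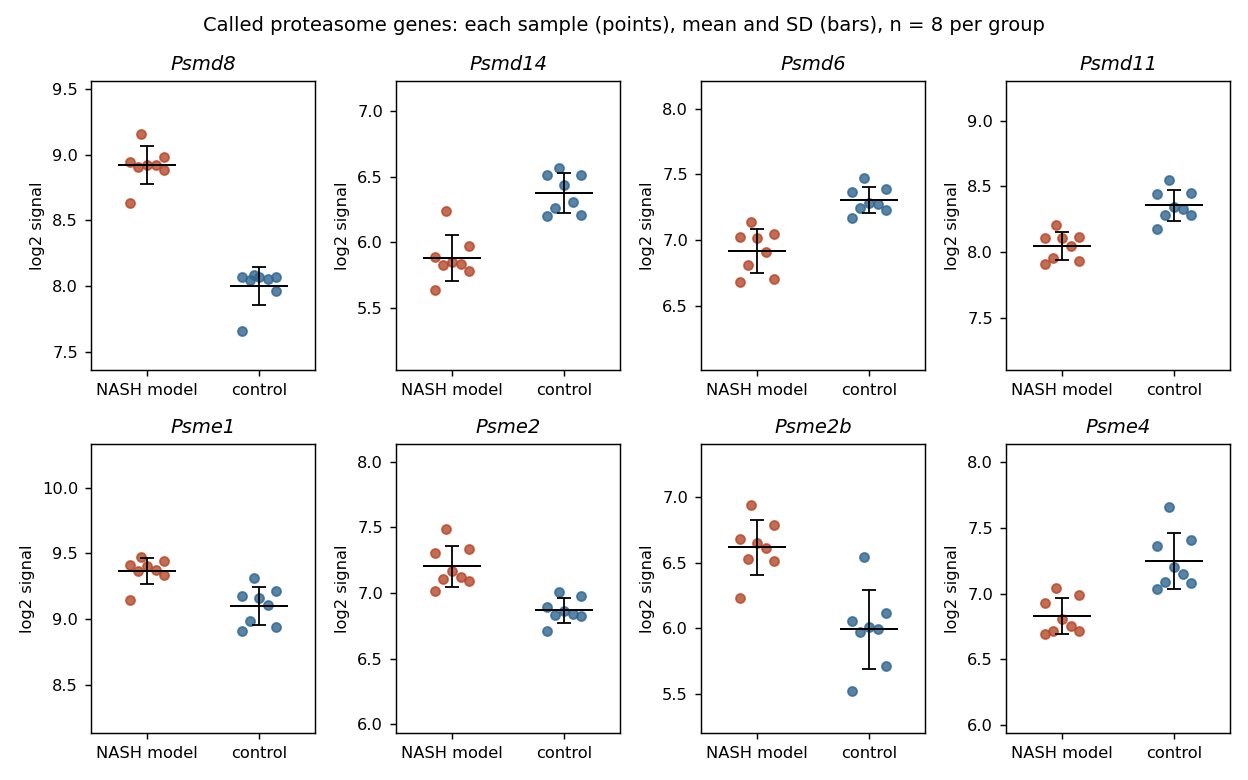
Log2 values of each called proteasome gene in the 8 NASH model samples (left of each pair) and the 8 control samples, 1 point a sample, bars at the group mean with its SD. Axes are log2 signal and start above 0. Psmd8, Psmd6 and Psme2 show no overlap between the groups.

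The promoters of 4 called genes are shown because they differ in direction and in the motifs they hold. They are taken from RefSeq (GRCm38.p6) and run from 250 bases before to 50 bases after the gene start, 5′ to 3′ on the gene's strand, Psmd8 at chr7:29180624-29180923 (minus strand), Psmd14 at chr2:61711444-61711743 (plus strand), Psme1 at chr14:55578244-55578543 (plus strand) and Psme4 at chr11:30771525-30771824 (plus strand). Capitals mark matches, on either strand, to the antioxidant response element core TGACNNNGC, the CCAAT box CCAAT, the core of the interferon-stimulated response element (GAAA and GAAA with any pair of bases between) and the GC box GGGCGG.
Psmd8: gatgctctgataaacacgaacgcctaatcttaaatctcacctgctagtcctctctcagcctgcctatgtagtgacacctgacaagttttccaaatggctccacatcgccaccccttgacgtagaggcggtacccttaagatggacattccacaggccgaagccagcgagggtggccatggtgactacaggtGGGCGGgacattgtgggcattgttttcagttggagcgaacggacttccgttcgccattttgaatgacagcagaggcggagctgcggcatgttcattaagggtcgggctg
Psmd14: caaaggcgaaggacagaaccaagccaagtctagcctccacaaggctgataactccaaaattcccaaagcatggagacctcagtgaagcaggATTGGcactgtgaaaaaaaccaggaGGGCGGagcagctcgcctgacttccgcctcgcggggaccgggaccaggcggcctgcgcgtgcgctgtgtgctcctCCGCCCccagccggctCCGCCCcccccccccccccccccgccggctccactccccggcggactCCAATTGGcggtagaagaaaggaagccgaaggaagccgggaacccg
Psme1: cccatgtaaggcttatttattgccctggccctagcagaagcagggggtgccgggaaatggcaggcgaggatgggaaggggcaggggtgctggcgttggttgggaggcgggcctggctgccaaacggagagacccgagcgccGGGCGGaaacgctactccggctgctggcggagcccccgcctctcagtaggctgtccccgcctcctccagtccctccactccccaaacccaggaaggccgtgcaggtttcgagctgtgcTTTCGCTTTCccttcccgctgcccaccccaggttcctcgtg
Psme4: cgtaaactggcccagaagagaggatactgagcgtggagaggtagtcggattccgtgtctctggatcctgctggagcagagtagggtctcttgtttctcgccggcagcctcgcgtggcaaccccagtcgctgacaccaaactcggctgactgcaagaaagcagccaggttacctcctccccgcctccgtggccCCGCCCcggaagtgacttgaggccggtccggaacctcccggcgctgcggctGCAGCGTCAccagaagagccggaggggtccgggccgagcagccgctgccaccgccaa
In Psmd14, CCAAT matches on both strands overlap in the stretch CCAATTGG. Psme4 holds the antioxidant element core and Psme1 the interferon element core, while the only match in Psmd8 is a GC box.

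Of the 47 genes, 39 matched RefSeq promoters, 43 in all. The antioxidant element core was in 5 of these 43 promoters (11.6%), against 12.4% of all 32851 promoters. The CCAAT box was in 15 (34.9%, against 37.4%), the interferon element core in 5 (11.6%, against 3.44%) and the GC box in 24 (55.8%, against 35.7%). In the 9 promoters of the called genes the antioxidant core, the CCAAT box and the interferon core were each in 1, and the GC box in 8. Both overlapping entries of Psme2, each with the GC box, are counted there. A match describes the letters in this window and is not a binding site.

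The activators moved in opposite directions. The caps Psme1 and Psme2 rose, and Psme4 fell. Psme1 had 9.15, 9.39 and 9.47 in NASH model samples and 8.91, 9.13 and 9.31 in control samples, with 7 of the 8 NASH model samples above every control sample. Its log2 fold change was 0.27 ± 0.08, 1.20-fold, with an adjusted p of 0.019. Psme2 had 7.02, 7.15 and 7.48 in NASH model samples and 6.71, 6.85 and 7.01 in control samples. Here the groups did not overlap, and the log2 fold change was 0.33 ± 0.08, 1.26-fold, with an adjusted p of 0.0051.

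Psme2b, a gene named as a second Psme2, had 6.23, 6.63 and 6.94 in NASH model samples and 5.52, 6.00 and 6.54 in control samples. Of the NASH model samples 5 lay above every control sample. Its log2 fold change was 0.63 ± 0.13, 1.54-fold, with an adjusted p of 8.8e-04. How far its probe set also reads Psme2 was not tested.

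Psme4, the PA200 cap, had 6.70, 6.78 and 7.04 in NASH model samples and 7.04, 7.18 and 7.66 in control samples, with 7 of the 8 NASH model samples below every control sample. Psme4 fell by 0.42 ± 0.10 on the log2 scale (1.34-fold lower, adjusted p = 0.0035). Psme3, the nuclear cap PA28 gamma, was not called. Psme3 averaged 7.99 ± 0.11 in NASH model samples and 8.15 ± 0.17 in control samples (log2 fold change -0.16, 95% interval -0.34 to 0.02, adjusted p = 0.20). Psmf1, the inhibitor PI31, averaged 7.79 ± 0.14 in NASH model samples and 7.61 ± 0.12 in control samples (log2 fold change 0.18, 95% interval 0.00 to 0.36, adjusted p = 0.13).

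Several of these genes lie close to others in the RefSeq annotation, where Psme1, Emc9 and Psme2 follow each other. Psme1 overlaps Emc9, Psme4 overlaps Gm12103 and Erlec1, and Psme2b overlaps 9930111J21Rik1. Whether the overlapping genes add to these signals was not tested. With array medians as the scale, Psme1 was not called (0.15, adjusted p = 0.20). With the clock-gene score in the fit, Psme1 (0.37 ± 0.12, adjusted p = 0.0504), Psme2 (0.33 ± 0.13, adjusted p = 0.090), Psme2b (0.57 ± 0.19, adjusted p = 0.054) and Psme4 (-0.35 ± 0.15, adjusted p = 0.13) were not called either. Their standard errors all grew, while the change was larger for Psme1, nearly equal for Psme2 and smaller for Psme2b and Psme4. The clock-gene score, from 17 clock genes of which 5 rose and 6 fell, ran from -1.05 to -0.47 in NASH model samples and from -1.12 to 1.60 in control samples. Its median was -0.69 in NASH model samples and 0.85 in control samples, so the score and the group cannot be fully told apart.

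The remaining genes were not called. Psmg1, Psmg2, Psmg3 and Psmg4, which assemble the core, had log2 fold changes of -0.13, -0.15, 0.19 and 0.25. Psma8 and Psmb11 belong to other tissues and were dim here, with values under the background level (log2 2.89) in 6 NASH model and 7 control samples for Psma8 and in 8 NASH model and 5 control samples for Psmb11. Psmb11 had a log2 fold change of -0.51 (adjusted p = 0.060). Psmc3ip and Psme3ip1 had 0.15 and -0.13.

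**Figure D3:**
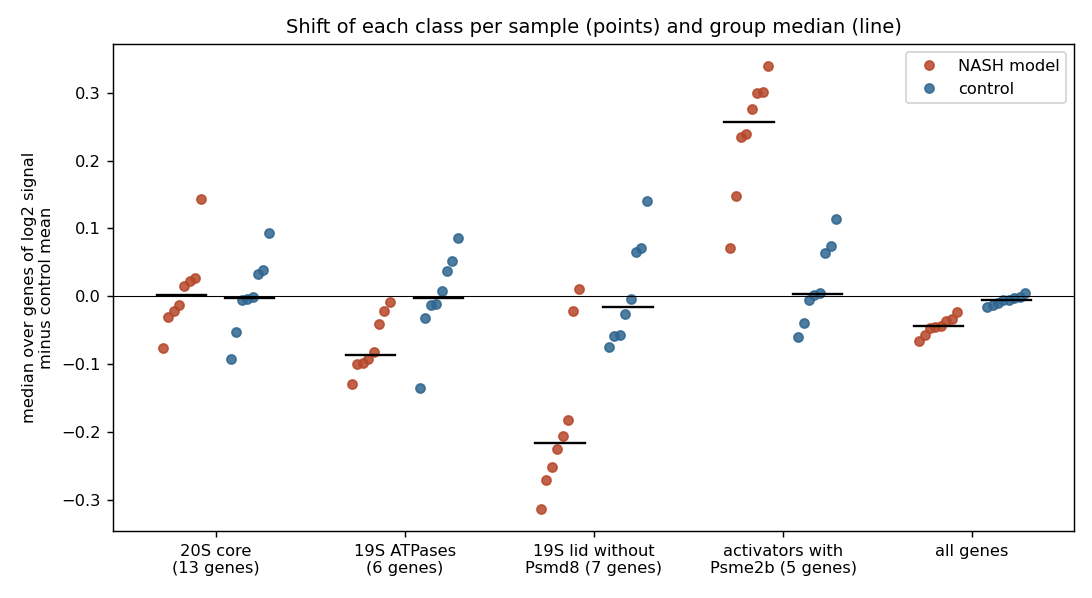
Median over genes of the deviation from the control mean (log2, vertical axis) for 4 classes of proteasome genes and for all genes, 1 point a sample, NASH model left of control, lines at the group medians. The 13 core subunits run from -0.08 to 0.14 in NASH model samples and from -0.09 to 0.09 in control samples, and the 6 ATPases from -0.13 to -0.01 in NASH model samples and from -0.14 to 0.09 in control samples.

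The median over a class was also taken in each sample, which hides members that moved the other way (Psme4 among the activators). Psmd8 was left out of the lid median because it rose, which lowers that summary. The median log2 fold change over the lid genes was -0.13 with Psmd8 and -0.18 without it. The 5 activators, Psme2b included, had medians of 0.07, 0.26 and 0.34 (lowest, median, highest) in NASH model samples and -0.06, 0.00 and 0.11 in control samples. The 7 lid genes other than Psmd8 had -0.31, -0.22 and 0.01 in NASH model samples and -0.07, -0.02 and 0.14 in control samples. NASH 2 and NASH 7 lay near 0 for the lid, at -0.02 and 0.01, and the other 6 NASH model samples lay between -0.31 and -0.18. The same 2 samples had the lowest activator medians of the NASH model group, 0.07 and 0.15.

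The immunoproteasome subunits, which take the places of the constitutive catalytic subunits, were set beside them. Psmb8 averaged 7.01 ± 0.24 in NASH model samples and 6.73 ± 0.28 in control samples (log2 fold change 0.28, adjusted p = 0.12). Psmb9 averaged 5.97 ± 0.23 in NASH model samples and 5.93 ± 0.24 in control samples (0.04, adjusted p = 0.83). Psmb10 averaged 6.53 ± 0.21 in NASH model samples and 6.06 ± 0.40 in control samples (0.47 ± 0.15, 1.38-fold, adjusted p = 0.025), and rose. The Psmb10 call ended without control 10 (0.41, adjusted p = 0.053), without NASH 1b (0.42, adjusted p = 0.054) and with the clock score in the fit (0.21 ± 0.21, adjusted p = 0.59).

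The RNA balance of an inducible and a constitutive subunit was tested as a log2 difference within each sample, with 2 tests. Which subunits were built into proteasomes was not measured. The tests were not repeated with the clock score or a replicate block, under which Psmb10 itself was not called. Psmb10 minus Psmb7 averaged -1.66 ± 0.26 in NASH model samples and -2.21 ± 0.35 in control samples, a change of 0.55 ± 0.15 (1.46-fold in the ratio). The exact permutation p was 0.0037 (two-sided), adjusted p = 0.0075, and 5 of the 8 NASH model samples lay above every control sample. Psmb10 alone had a log2 fold change of 0.47 and Psmb7 of -0.08. The test reuses the Psmb10 values and is no separate support for the rise of Psmb10. Psmb9 minus Psmb6 averaged -2.18 ± 0.24 in NASH model samples and -2.18 ± 0.22 in control samples, with an exact permutation p of 0.987, and the adjusted p was the same. The dendritic cell markers, 11 genes, summed to 50.2 to 54.7 in NASH model samples and 43.3 to 47.7 in control samples (4 called higher, 0 lower). The called ones were Flt3 (0.73) and the class II genes H2-Aa (1.78), H2-Eb1 (1.66) and H2-Ab1 (1.26), which macrophages also express. Zbtb46, Xcr1, Clec9a, Cd209a, Itgae, Ciita and Ccr7 were not called. Several of the list were dim, with values under the background level in 6 NASH model and 7 control samples for Zbtb46. For Xcr1 these counts were 5 and 7, for Itgae 5 and 5, and for Flt3 3 and 8. A change in such dim genes can be missed. Lymphocyte markers, 15 genes, summed to 47.8 to 51.3 in NASH model samples and 43.9 to 48.8 in control samples (5 called higher, 1 lower). Their part in the Psme1, Psme2 and Psmb10 values was not tested.

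**Figure D4:**
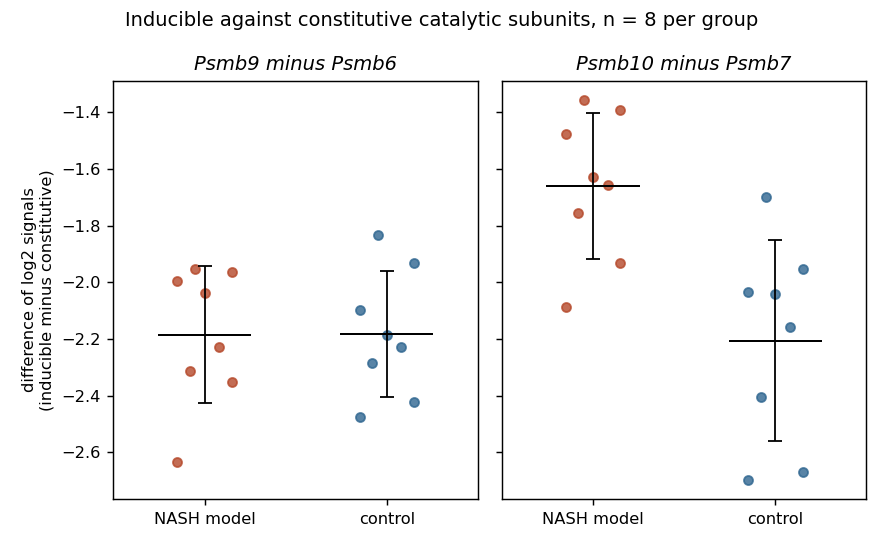
Log2 difference between the inducible and the constitutive catalytic subunit in each sample, NASH model left of control, bars at the group mean with its SD. Psmb9 minus Psmb6 (left panel) has the same mean, -2.18, in both groups, and 5 of 8 NASH model samples lie above every control sample for Psmb10 minus Psmb7 (right panel).

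Genes that work with the proteasome are given by list, beside a median of -0.04 and 26.6% called over all genes. Of genes with a mean at or above the background level, 37.7% were called. Of 20 proteasome-bound factors and ubiquitin shuttles measured, 3 rose and 7 fell, with a median of -0.11. Sqstm1 (0.70 ± 0.10), which brings ubiquitylated cargo to autophagy, and Zfand2a (0.71 ± 0.11), an arsenite-induced proteasome partner, rose, and Ufd1 (-0.45 ± 0.10), a partner of Vcp, fell. Of 10 ubiquitin and ubiquitin-conjugating genes, 3 rose and 1 fell, with a median of 0.12; the conjugating enzymes Ube2c (0.52 ± 0.16), Ube2l6 (0.47 ± 0.09) and Ube2l3 (0.27 ± 0.09) rose.

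Of 13 regulators of proteasome gene transcription, 2 rose and 3 fell, with a median of -0.07. Maff (0.89 ± 0.31) and Mafk (0.51 ± 0.17), small Maf partners of Nfe2l1 and Nfe2l2, rose and Foxo3 (-0.47 ± 0.10) fell. Nfe2l1 (0.15, adjusted p = 0.32) and Nfe2l2 (-0.07, adjusted p = 0.75) were not called. Of 14 NRF2 target genes, which Nfe2l2 controls, 11 rose and 1 fell, with a median of 0.54, among them Nqo1 (2.11 ± 0.19), a quinone reductase, Hmox1 (2.04 ± 0.15), which breaks down heme, and Srxn1 (1.87 ± 0.13), which restores peroxiredoxins. Of 13 immunoproteasome and class I loading genes, 6 rose and 2 fell, with a median of 0.23; H2-D1 (0.62 ± 0.08), a class I heavy chain, rose, and the chaperones Calr (-0.65 ± 0.11) and Pdia3 (-0.58 ± 0.12), which load class I molecules, fell.

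The counts of called proteasome genes depended on the scale and on the clock score. With array medians as the scale, 3 were called higher (12.1% of all genes) and 11 lower (18.7% of all genes), the added ones being Psmb11, Psmc4, Psmd1, Psmd2, Psmd5, Psmd12 and Psme3. With hybridization spike-in controls as the scale, 4 were called higher (17.0% of all genes) and 2 lower (6.04% of all genes). With the clock score in the fit, 1 was called higher (7.81% of all genes) and 3 lower (6.43% of all genes), namely Psmd8, and Psmd14, Psmd6 and Psmb11. Standard errors of the genes called without the score were larger in that fit. Whether the clock accounts for the lost calls was not tested. Psmd8 and Psmd14 were called in the same direction under each of these settings.

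**Figure D5:**
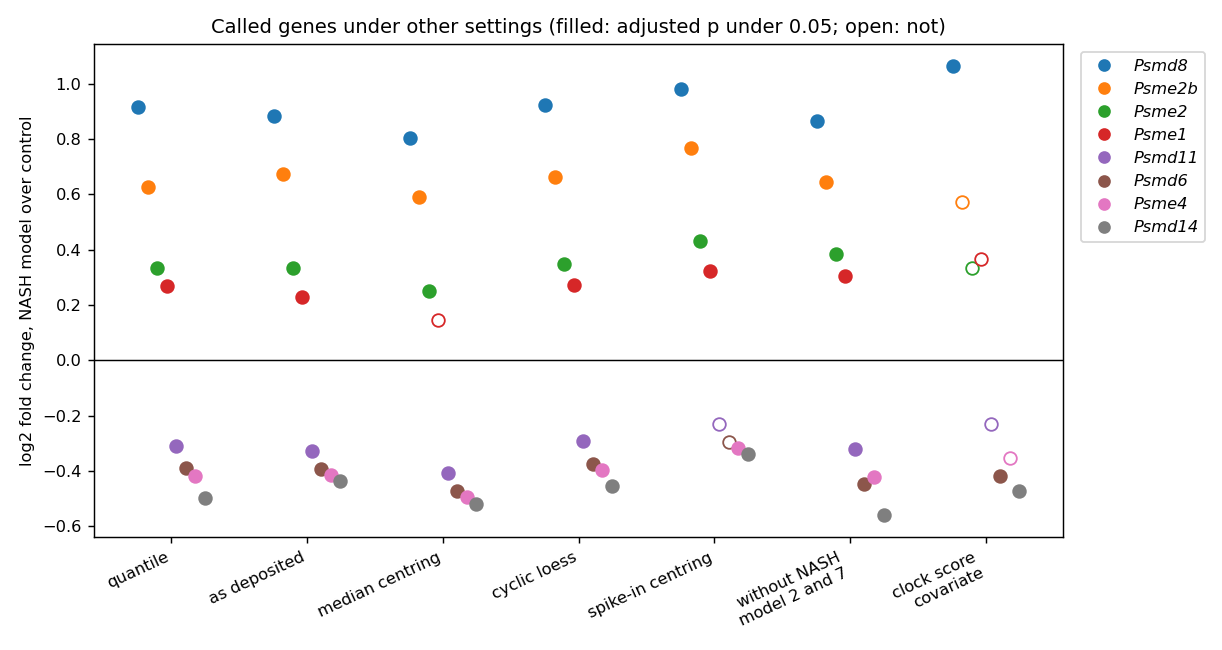
Log2 fold change, NASH model over control (vertical axis), of the 8 called genes under 7 settings (horizontal axis), filled where the adjusted p is under 0.05 and open where it is not. Psmd8 lies between 0.80 and 1.06 throughout, and each gene keeps its direction.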

How the data were processed

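The log2 values, deposited by the authors for 29129 probe sets on 16 arrays, were taken from the series' table; how they were normalized is given neither in the labels nor in that table. Array medians ran from 3.52 to 3.66, a difference of 0.14, so the values were quantile-normalized, which moved no value by more than 0.16. Gene symbols came from the platform annotation (19572 probe sets with a symbol, 9557 without). Each gene was represented by its probe set with the highest mean. No filter on dim genes was used; the background level, log2 2.89, is the 95th percentile of 1412 olfactory and vomeronasal receptor genes. The number of arrays limits the precision.

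Groups were compared with limma 3.58.1 (R 4.3.3), two-sided, Benjamini-Hochberg over 19505 genes. Within-sample differences between inducible and constitutive catalytic subunits used exact permutation tests. The difference Psmb8 minus Psmb5 is not analysed here. The script was tested on simulated data. Each proteasome gene is accounted for. Group values are given for preset genes and for the 3 called genes of each class, and of each pathway list 3 called genes are named, by largest absolute fold change; Nfe2l1 and Nfe2l2 were added. Marker lists are given by counts and sums, and of the dendritic cell list the genes behind the sum were named after their values were seen. Proteasome genes, lists and tests were chosen with earlier results of these data known. NASH 1a and 1b differed by an SD of 0.387 over genes, within the 0.340 to 0.466 of the other 27 pairs in their group. They were kept as separate samples, though this spread cannot show whether they come from 1 animal. With 1a and 1b averaged, 4 proteasome genes were called higher and 5 lower, Psmd5 being added. Of all genes, 2498 were then called higher and 2540 lower. Alternatives covered scaling, the dim filter, probe-set choice, variance options, array weights, leaving out samples, a replicate block and a clock score. Quantile normalization over gene probe sets only was added after seeing the data.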

Additional observations from a re-analysis of the deposited data

Results flagged for a closer look

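Among 104 groups of 8 samples tested for a sample standing apart, 7 showed one, and chance alone gives about 1 in 20 groups. Values are log2. Psmc3 was 8.66 in NASH 7, above the next NASH model sample at 8.36. Psmc4 was 8.08 in control 4, above the next control at 7.89, and Psmd1 was 8.19 in control 4, above the next at 7.92. Psmd2 was 7.94 in NASH 3, below the next NASH model sample at 8.16. Psmd8 was 7.66 in control 5, below the next control at 7.96. Psme1 was 9.15 in NASH 2, below the next NASH model sample at 9.34, and Psmb9 was 5.48 in NASH 2, below the next at 5.90.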

How the results depend on the processing

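The 8 called proteasome genes kept their call and direction in all 16 fits that left out 1 sample, where 4 were called higher and 4 to 5 lower. With array medians as the scale, 11 were called lower and the median log2 fold change of the 47 genes was -0.13, while all genes had -0.12. With hybridization spike-in controls, 2 were called lower and the median was 0.0515, while all genes had 0.06. The share of all calls that were higher was 49.6% with quantile normalization, 39.2% with medians and 73.7% with spike-ins. With the clock score 1 gene was called higher. The catalytic exchange Psmb9 minus Psmb6 was 0.0863 on the deposited values and with either scaling, 0.0265 with loess and 0.0805 without NASH 2 and 7, and -0.0440 to 0.0625 when 1 sample was left out. The cause was not tested. A replicate block called 3 higher (10.6% of all genes) and 4 lower (9.54% of all genes), and Psme2 (adjusted p = 0.068), Psme4 (0.052) and Psmb10 (0.17) were not called. Over all genes, deviations from the group means correlated at -0.03 to 0.06 in the 7 same-numbered pairs, with 0 over 0.1. This cannot exclude a pairing, since samples handled together need not correlate over all genes. Signal near background limits the dim genes Psma8, Psmb11 and Psmc3ip.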
